A study of Homo sapiens with 47 samples.

Results

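Single HEK293 cells differed in how much of their messenger RNA came from the mitochondrial genome, and the 12 cells with the highest and the 12 with the lowest such share are described here. They are 24 of the 47 cells of the series. For each cell the unique molecular identifiers (UMIs, tags that count original RNA molecules) of the 13 mitochondrially encoded mRNAs were divided by all endogenous UMIs of that cell, and 46 cells were ranked by this share. Cell 52 was left out of the ranking because its share, 12.1%, stood far above the rest. The other 22 cells lie between both groups and are called the middle cells. Cells carry the number that their labels give.

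HEK293, an established cell line derived from human embryonic kidney, was the only line used. No treatment is named in the labels. Cells were grown in DMEM with glutamine and fetal calf serum, and captured on a Fluidigm C1 circuit. Synthetic spike-in RNAs went into the lysis mix at 20000 molecules per cell, and the oligo-dT-primed libraries kept the 5' end of each transcript. Some epithelial and neuronal markers known from this line were present in both groups. KRT18 had 63 UMIs in the high and 70 in the low cells, and KRT8 had 29 and 42. UCHL1 had 169 and 206, NEFM 120 and 99, and NEFL 33 and 27. These counts come from unequal totals. As shares of non-mitochondrial UMIs both marker lists had a summed ratio of 1.42 in high over low cells. The fibroblast genes COL1A1 and COL1A2 had 0 UMIs in the high cells and 3 in the low cells together, and the blood gene HBA1 had 0 in both. PECAM1, VWF and CDH5, searched for as endothelial markers, gave no value here. Nor did KRT19, TUBB3, STMN2, COL3A1, DCN, LUM, PTPRC, CD3E, HBB and LYZ, searched for with the other markers.

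Both groups come from 1 line in 1 run, and the labels name no separate cultures. Each group of cells is therefore 1 sample, no test was made and no p-value is given. Differences are given as the ratio of the mean over 12 high cells to the mean over 12 low cells. Beside it stand the range of the cells and the number of pairs of a high and a low cell (12 × 12 pairs in all) in which the high cell had the larger value, where 72 would mean an even split.

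The human mitochondrial genome is a small circle that is transcribed from both strands into long precursors. These are cut mostly at the tRNAs that lie between the coding genes, which frees the mRNAs of 13 genes, 2 ribosomal RNAs and 22 tRNAs. MT-ATP8 shares a transcript with MT-ATP6, as MT-ND4L does with MT-ND4, and each is counted here as an mRNA of its own. All 13 mRNAs encode subunits of the respiratory chain or of ATP synthase, and they are translated by mitochondrial ribosomes whose proteins come from nuclear genes. The remaining subunits of the same complexes are nuclear-encoded, so each complex except complex II is built from both genomes.

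Nuclear chromosomes also carry old copies of mitochondrial DNA, and 1 of them, MTATP6P1, is a row of the table with enough UMIs to be measured. It is an unprocessed pseudogene at chr1:633696-634376 on the plus strand of GRCh38, and its 681 bases pair with MT-ATP6, the subunit a gene of ATP synthase, at chrM:8527-9207 on the plus strand. In the GENCODE release 29 transcripts, 671 of the 681 aligned bases were identical, or 98.5%. The stretch below, positions 116 to 175 of both transcripts counted from 1 at the start, is shown because reads of the mRNA and of the copy can be told apart only where bases differ. Capitals mark the 3 mismatches.
MT-ATP6: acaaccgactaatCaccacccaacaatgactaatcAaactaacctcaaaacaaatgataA
MTATP6P1: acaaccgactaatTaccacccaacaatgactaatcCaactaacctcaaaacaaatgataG
The treatment of reads that map to both places is not given in the sources used here, and the row is set apart as uncertain. The table was made on another build than these sequences, hg19 (GRCh37).

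By construction the groups did not overlap in the share that ranked them. The high cells ran from 3.43% (cell 75) through a median of 4.20% to 5.02% (cell 51), and the low cells from 2.21% (cell 33) through 2.56% to 2.67% (cell 3). The ranking is continuous at both edges: the first cell left outside the high group, cell 86, had 3.42%, and the first outside the low group, cell 74, had 2.71%. Summed over cells, 23679 of 567596 UMIs of the high cells were mitochondrial mRNA, 4.17% (95% Clopper-Pearson interval 4.12 to 4.22, which covers counting error only). In the low cells 23712 of 959026 were, 2.47% (2.44 to 2.50).

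The number of mitochondrial mRNA UMIs per cell was about the same in both of these groups, while the number of other UMIs differed. High cells had 1162 to 2935 mitochondrial mRNA UMIs with a median of 1886, and low cells 1321 to 3631 with a median of 1754, a ratio of means of 0.999. Endogenous UMIs ran from 29325 through 43390 to 69866 in the high cells and from 50386 through 74904 to 138647 in the low cells, a ratio of 0.592. The low cell had more endogenous UMIs in 125 pairs, and 8 of the 12 high cells lay below every low cell. In these groups the name "high" thus holds for the share and not for the number of mitochondrial mRNA molecules counted. In the choice of cells balanced for depth, described below, the mean number was 2224 in the high and 1646 in the low cells.

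Spike-in UMIs offer a second scale, because each chamber received the same lysis mix. They numbered 2655 to 4181 in the high and 2779 to 4655 in the low cells, a ratio of means of 0.859. Mitochondrial mRNA per spike-in UMI was 0.402, 0.585 and 0.797 (lowest, median, highest) in the high cells and 0.331, 0.470 and 0.780 in the low cells, a ratio of 1.16 with the high cell larger in 100 pairs. Non-mitochondrial UMIs per spike-in UMI were 10.2, 12.1 and 18.2 in the high cells and 12, 18.9 and 28.4 in the low cells, a ratio of 0.675 with the low cell larger in 128 pairs. On this scale too the groups were nearer in mitochondrial mRNA than in other RNA. Less RNA in a cell and less RNA captured from it both lower UMIs per spike-in UMI, and they cannot be told apart here.

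**Figure D1:**
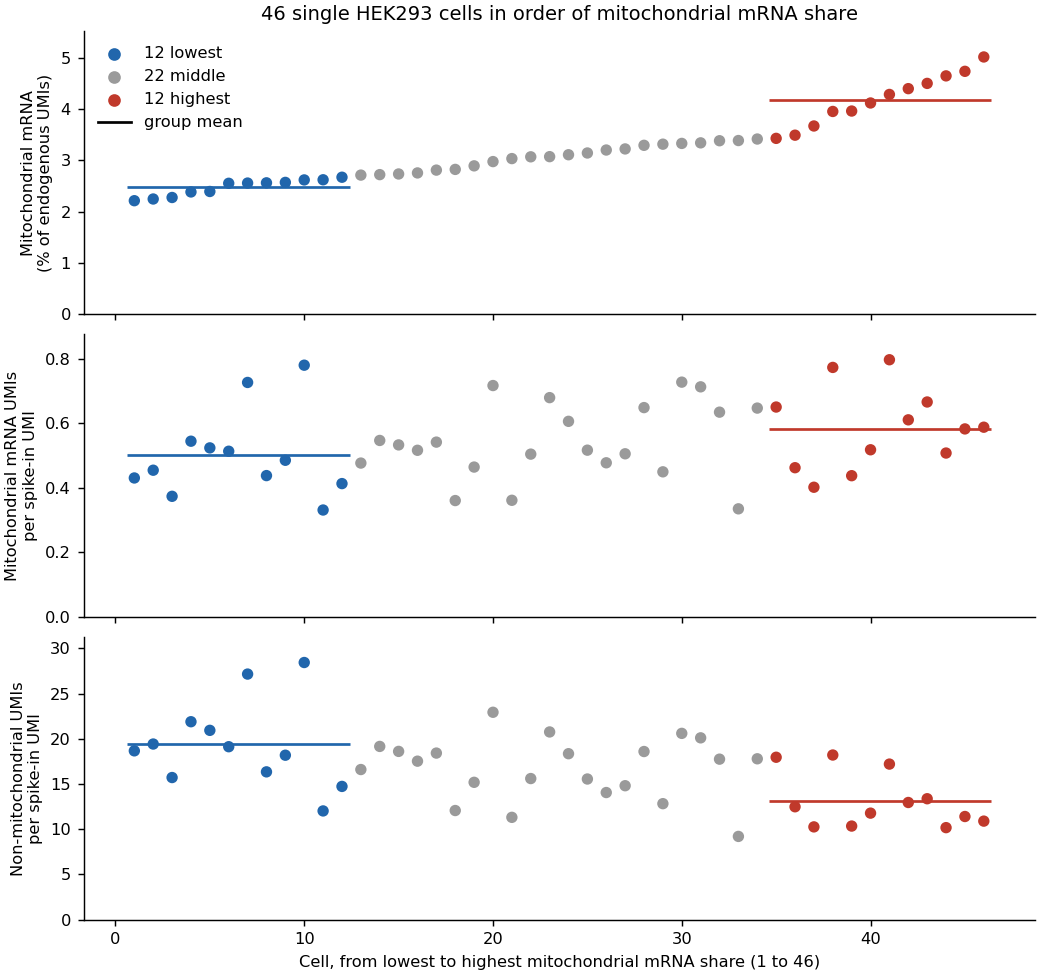
Each point is 1 of 46 cells, placed from the lowest to the highest mitochondrial mRNA share; the panels give that share in percent of endogenous UMIs, mitochondrial mRNA UMIs per spike-in UMI and non-mitochondrial UMIs per spike-in UMI, with horizontal lines at the means of the 12 low (blue) and 12 high (red) cells. The groups overlap broadly in mitochondrial mRNA per spike-in UMI, while 6 of the 12 high cells have fewer non-mitochondrial UMIs per spike-in UMI than every low cell.

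Over all 46 cells, which share 1 run, the share went with endogenous UMIs at Pearson's r = -0.485 (Spearman's rho = -0.518) and with non-mitochondrial UMIs per spike-in UMI at r = -0.538 (rho = -0.561). Within the 22 middle cells the same values were r = -0.139 (rho = -0.130) and r = -0.119 (rho = -0.0988). These are descriptions: endogenous UMIs are also the denominator of the share, and the middle cells, chosen by the share, span only 2.71% to 3.42% of it, which by itself lowers a correlation. The high cells had fewer genes detected, a median of 5688 against 7450. After every cell was thinned to 29325 UMIs the medians were 4892 and 5267, a smaller gap, and the low cell had more genes in 120 pairs.

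All 13 mitochondrial mRNAs had a larger mean share of endogenous UMIs in the high cells, as the ranking by their sum favours, and the ratios ran from 1.46 to 2.18. They are given as a description, since these values chose the cells. Complex I, the NADH dehydrogenase, had a summed ratio of 1.77 over its 7 mRNAs. MT-CYB, the only mitochondrially encoded subunit of complex III, had 1.73. The 3 cytochrome c oxidase mRNAs of complex IV had 1.6 and the 2 ATP synthase mRNAs 1.66. The difference was thus spread over all 4 complexes with mitochondrially encoded subunits.

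The marker mRNAs separated the groups to different degrees. MT-ND4 took 0.266%, 0.407% and 0.530% of endogenous UMIs in the lowest, median and highest high cell, against 0.165%, 0.201% and 0.243% in the low cells. MT-ND5 took 0.147%, 0.183% and 0.353% against 0.0601%, 0.101% and 0.127%. For neither gene, both subunits of the proton-pumping membrane arm of complex I, did the groups overlap, and their ratios of means were 2.00 and 2.18. The shares of MT-ATP6, MT-CO2 and MT-CO3 did not overlap either. MT-CO1, the catalytic subunit of cytochrome c oxidase, took 0.123%, 0.193% and 0.335% against 0.0756%, 0.133% and 0.151%, a ratio of 1.74 with overlap between the groups.

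The make-up of the mitochondrial mRNA pool is given as a description, since its sum chose the cells. MT-ND5 made up a mean of 5.13% of the pool in the high cells (3.52% to 8.02%) and 3.97% in the low cells (2.64% to 4.84%), so the groups overlapped. The means of MT-ND4 were 9.63% and 8.21%, and those of MT-ND2 6.07% and 5.46%. MT-ND4L, which lies on the same transcript as MT-ND4, went the other way, with 6.65% and 7.81%, as did MT-CO2 with 11.6% and 12.4%. MT-ND6, the only mRNA read from the opposite strand, was the scarcest at 0.610% and 0.472%. MT-ATP8 and MT-ATP6 overlap by 46 bases on their shared transcript, so UMIs near that place could have been given to either. Their ratios were 1.62 and 1.76. In MT-ND4, MT-ND2, MT-ND4L, MT-CO2 and MT-ND6 the cells of both groups overlapped as well.

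**Figure D2:**
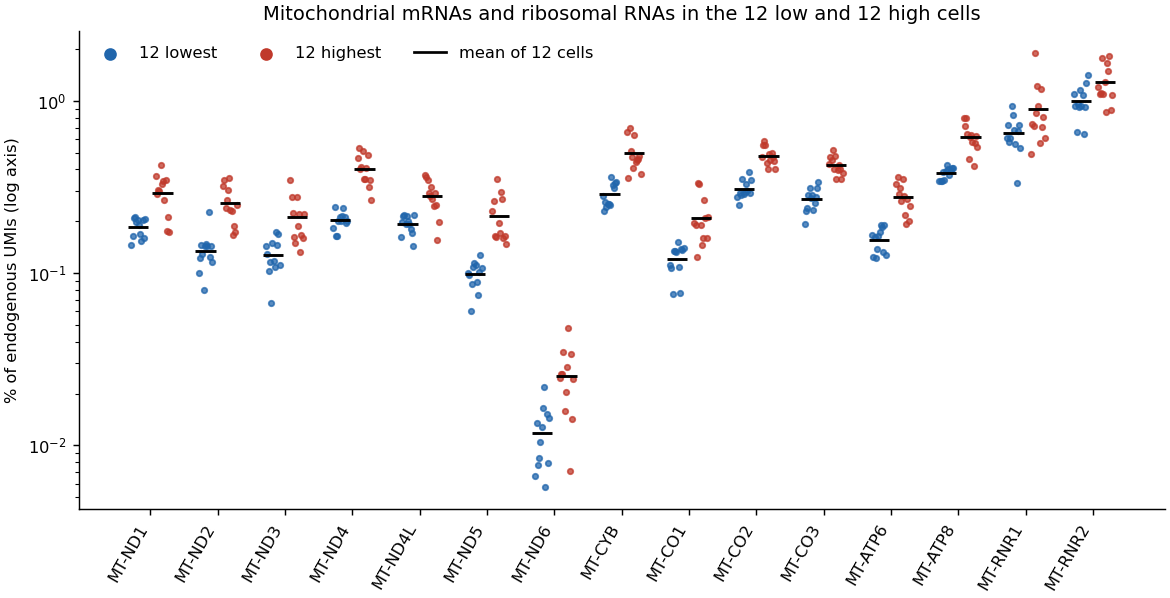
Each point is 1 cell and shows the percent of endogenous UMIs (log axis) taken by a mitochondrial mRNA or ribosomal RNA, in the 12 low (blue) and 12 high (red) cells, with a bar at the mean of 12 cells. MT-ND4, MT-ND5, MT-ATP6, MT-CO2 and MT-CO3 show no overlap between the groups, which the ranking by the mRNAs favours. The ribosomal RNAs MT-RNR1 and MT-RNR2, which entered the ranking only as part of all endogenous UMIs, overlap.

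Mitochondrial RNAs other than the mRNAs, which entered the ranking only as part of all endogenous UMIs, went the same way as shares. Non-mitochondrial UMIs, by which they are divided, were fewer in the high cells (ratio of means 0.576), so the choice of cells favours this direction. How far these RNAs went is not compared with the mRNAs, whose values chose the cells. MT-RNR1 and MT-RNR2, the ribosomal RNAs of the small and large mitochondrial subunit, together equalled 1.79%, 2.03% and 4.07% of non-mitochondrial UMIs in the high cells and 1.01%, 1.73% and 2.10% in the low cells. The ratio of means was 1.36, with the high cell larger in 120 pairs. The middle cells, however, had a median of 2.27%, above that of both groups, so this share did not follow the ranking step by step. Per spike-in UMI the ribosomal RNAs had a ratio of 0.933, with the low cell larger in 88 pairs.

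The tRNA rows, whose mature products lack the poly(A) tail that oligo-dT primes on, summed to 0.0492%, 0.335% and 1.56% of non-mitochondrial UMIs in the high cells and 0.0961%, 0.183% and 0.794% in the low cells, a ratio of 1.90 with the high cell larger in 99 pairs. Of the 22 rows, 4 had a mean of at least 5 UMIs per cell, MT-TE, MT-TF, MT-TP and MT-TS2, and all 4 were at least 1.5-fold higher. MT-TP, the proline tRNA encoded on the opposite strand next to the control region, had 0, 15.7 and 37.1 UMIs per 10000 non-mitochondrial UMIs in the high cells and 3.13, 5.96 and 17.4 in the low cells. A single cell, cell 55, held the top values of MT-TF (44.9) and MT-TS2 (51.9), and without it their log2 ratios were 0.29 and 0.30 in place of 0.82 and 0.89. Without cell 56, a low cell, that of MT-TS2 was 1.58.

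The nuclear copy went with its original. MTATP6P1 had 4.07, 7.03 and 12.1 UMIs per 10000 non-mitochondrial UMIs in the high cells and 2.93, 4.57 and 7.03 in the low cells, a ratio of 1.56 with the high cell larger in 125 pairs. In cell 52 it reached 19.9. The copy had 0.244 UMIs per UMI of MT-ATP6 in the high cells and 0.288 in the low cells, and over 46 cells the 2 rows correlated at Spearman's rho = 0.447, which describes rows of the same libraries. Given the identity shown by the sequences above, UMIs of this row may stem from either gene. Without cell 51 or cell 55 its log2 ratio was as low as 0.55, under the 1.5-fold mark of 0.58.

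Nuclear genes were compared as shares of the non-mitochondrial UMIs of each cell, so that the mitochondrial RNA itself cannot push the others down. Of 18614 nuclear rows, 1830 had a mean of at least 5 UMIs per cell over the 46 cells. A gene was counted as different when the ratio of mean shares passed 1.5-fold. There were 40 genes higher in the high cells, 2.19% of those measured, and 119 lower, 6.5%. The higher genes include the uncertain copy MTATP6P1, and 39 remain without it. The median log2 ratio was -0.05, with 766 genes above 0 and 1064 below. In 0 genes of either direction did the 12 high cells lie wholly outside the range of the 12 low cells. None of the 1830 transcripts therefore separated the groups cell by cell.

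Other scalings moved the split between higher and lower genes: 13 higher and 190 lower under TMM scaling (6.40% higher), and 4 and 325 under DESeq2 size factors (1.22% higher), beside 25.2% under the main scaling. In the other direction, leaving cytosolic ribosomal protein rows out of the denominator gave 49 and 95 (34% higher), and the choice of cells balanced for depth, described below, gave 50 and 87 (36.5% higher). TMM scaling and DESeq2 size factors shifted the median of all genes by -0.12 and -0.24 on the log2 scale, so gene groups below are read against the median of all genes. That median counts each gene alike, whereas a summed ratio weighs abundant genes most. The 366 most abundant genes had a median log2 ratio of 0.02. The part of abundance in a sum above the median of all genes was not tested.

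**Figure D3:**
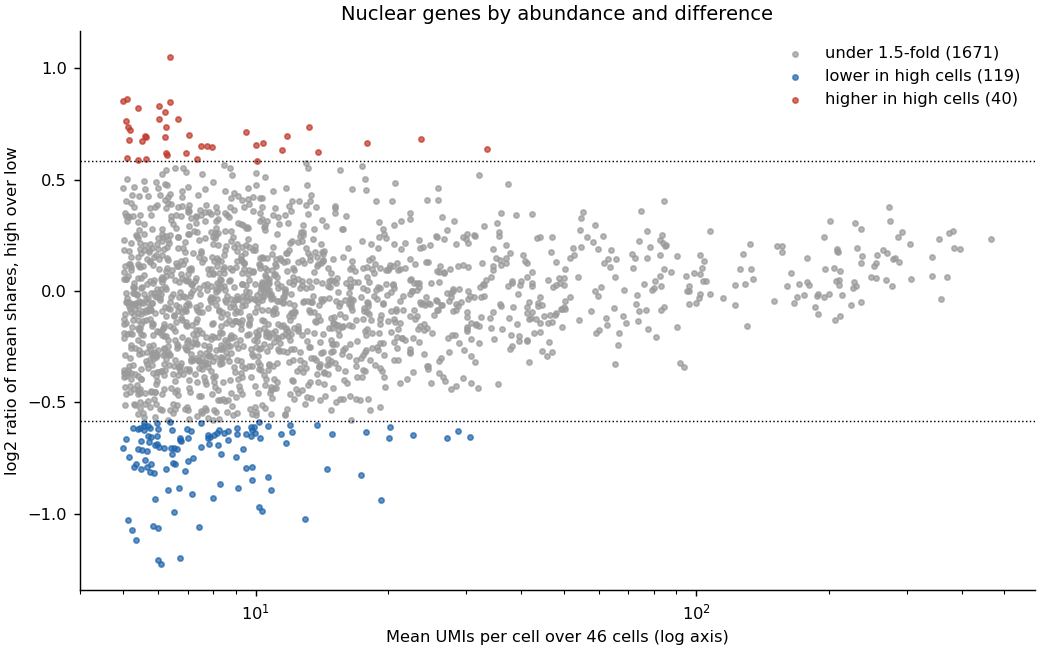
Each point is 1 of 1830 nuclear genes, placed by its mean UMIs per cell over 46 cells (log axis) and by the log2 ratio of mean shares in the 12 high over the 12 low cells, with dotted lines at 1.5-fold. The 40 higher (red) and 119 lower (blue) genes lie mostly at the low end of abundance.

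Genes past 1.5-fold were mostly scarce ones, for which counting error is largest. With genes split by abundance into 5 bins of 366, in the least abundant bin 5.46% were higher and 11.7% lower, whereas in the most abundant bin 1 gene was higher and 3 were lower. Both lower and higher genes also had a longer median transcript than all genes. Of the 1728 genes with a length in the annotation, the 115 lower genes had a median length of 2042 bases, the 39 higher genes 1944 and all genes 1514.5. With 5 bins by length, the share of lower genes was 3.18% in the shortest bin and 11% in the longest, and the share of higher genes 1.73% and 3.76%. Across genes, which are not independent, length and log2 ratio had a Spearman's rho of -0.135, and -0.106 without cytosolic ribosomal protein genes. The part of depth in this was not tested.

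The genes named next are the 12 in each direction with the most pairs on that side, apart from MTATP6P1, which with 125 pairs would lead the higher genes but is kept apart as an uncertain nuclear copy. They were picked on this same contrast, so their ratios are descriptions, and they were sorted by role after they were known. The middle cells took no part in the choice beyond the filter on mean UMIs. Genes picked for a gap between the groups nevertheless tend to have middle means inside that gap, so this is no independent check. Levels are UMIs per 10000 non-mitochondrial UMIs, given as the lowest, median and highest cell.

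The first 4 of the 12 higher genes described are known from mitochondria. In the mitochondrial gene lists 1 of 68 respiratory and ATP synthase subunits, 0 of 64 mitochondrial ribosomal proteins and 1 of 19 import genes were higher. Of all 1830 genes 2.19% were, and counts this small cannot be told apart from that share. AURKAIP1 was not on the list of mitochondrial ribosomal proteins. TIMM17B, a channel subunit of the TIM23 complex that brings proteins into the matrix, had 0.727, 2.49 and 5.78 in the high cells and 1.00, 1.67 and 2.27 in the low cells, a ratio of 1.67 with 117 pairs. NDUFB5, a nuclear subunit of complex I, had 0.963, 1.87 and 2.82 against 0.351, 1.18 and 2.09, a ratio of 1.58 with 116 pairs. AURKAIP1, which is also a protein of the small mitochondrial ribosomal subunit, had 1.51, 2.46 and 5.82 against 0.627, 1.48 and 4.22, a ratio of 1.62 with 114 pairs. COA1, an assembly factor for respiratory complexes, had a ratio of 1.5 with 105 pairs. In each of these genes the median high cell lay above the median low cell, and the ranges overlapped.

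DNAJB11, CDIPT and SERP1 are known from the endoplasmic reticulum. DNAJB11, a co-chaperone in the lumen of the endoplasmic reticulum, had the largest ratio of the 12, 2.07 with 114 pairs, at 0.481, 1.65 and 4.01 in the high cells and 0.115, 0.777 and 2.09 in the low cells. CDIPT, the enzyme that makes phosphatidylinositol, had 0.481, 1.43 and 2.95 against 0.327, 0.739 and 2.34, a ratio of 1.80 with 116 pairs. SERP1, which stabilises newly made membrane proteins, had a ratio of 1.59 with 112 pairs. The summed counts behind these ratios are small: DNAJB11 had 90 UMIs in the high cells (95% Poisson interval 72.4 to 111) and 70 in the low cells (54.6 to 88.4), from fewer UMIs in all in the high cells.

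The remaining higher genes have other roles. HSPB1, the small heat-shock protein, had 1.26, 4.54 and 6.77 in the high cells and 0.312, 2.42 and 6.77 in the low cells, a ratio of 1.58 with 112 pairs. ANAPC13, a subunit of the anaphase-promoting complex, had 1.64 with 110 pairs, and CYBA, the p22phox subunit of NADPH oxidase, 1.54 with 106. GSTM3, a glutathione transferase, had 1.51 with 106 pairs and SREK1IP1, a partner of a splicing regulator, 1.71 with 105. In the middle cells, 11 of the 12 higher genes had a mean between those of the low and the high cells, which the choice of genes favours.

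The 12 lower genes have varied roles. MCM3, a subunit of the replicative helicase, had 0, 0.391 and 2.63 in the high cells and 0.604, 1.18 and 2.68 in the low cells, 2.17-fold lower with the low cell larger in 126 pairs. Cell 51 alone held the 2.63, and without it the log2 ratio of MCM3 was -1.71 in place of -1.12. It was without a UMI in 4 of the 12 high cells and in 0 low cells. XRCC5, the Ku80 subunit that binds broken DNA ends, had 2.29, 3.20 and 6.49 against 3.27, 6.02 and 8.48, 1.57-fold lower with 125 pairs, on 207 UMIs (180 to 237) in the high and 531 (487 to 578) in the low cells. Of the 24 named genes XRCC5 rested on the most UMIs.

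The next 6 lower genes are known from RNA or protein synthesis, a grouping made after they were seen. RRP15, a factor of ribosome assembly, had 0, 0.305 and 1.32 in the high cells and 0.396, 1.2 and 2.29 in the low cells, the largest ratio of the 12 at 2.34-fold lower, with 121 pairs. LARS, the cytosolic leucyl-tRNA synthetase, was 1.91-fold lower with 121 pairs and RPL26L1, a paralog of a ribosomal protein, 1.57-fold with 122. DHX30, an RNA helicase that also works in mitochondrial ribosome assembly, was 1.75-fold lower with 120 pairs. EFTUD2, a GTPase of the spliceosome, was 1.64-fold lower with 118 pairs and CNBP, a nucleic-acid-binding protein, 1.58-fold with 119. RPL26L1 shares sequence with its parent gene, so its counts are uncertain.

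The last 4 lower genes handle transport and lipid groups. RABGGTB, a subunit of the enzyme that prenylates Rab proteins, had 0, 1.39 and 2.01 in the high cells and 1.2, 2.80 and 3.78 in the low cells, 2.03-fold lower with 125 pairs. CSE1L, the exportin that recycles importin alpha, was 1.86-fold lower with 122 pairs. LYPLA1, a depalmitoylating thioesterase, was 1.63-fold lower with 119 pairs and MFSD12, a transporter of lysosomes and related organelles, 2.30-fold with 117. In 11 of the 12 lower genes the mean of the middle cells lay between those of both groups, which the choice of genes favours too.

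**Figure D4:**
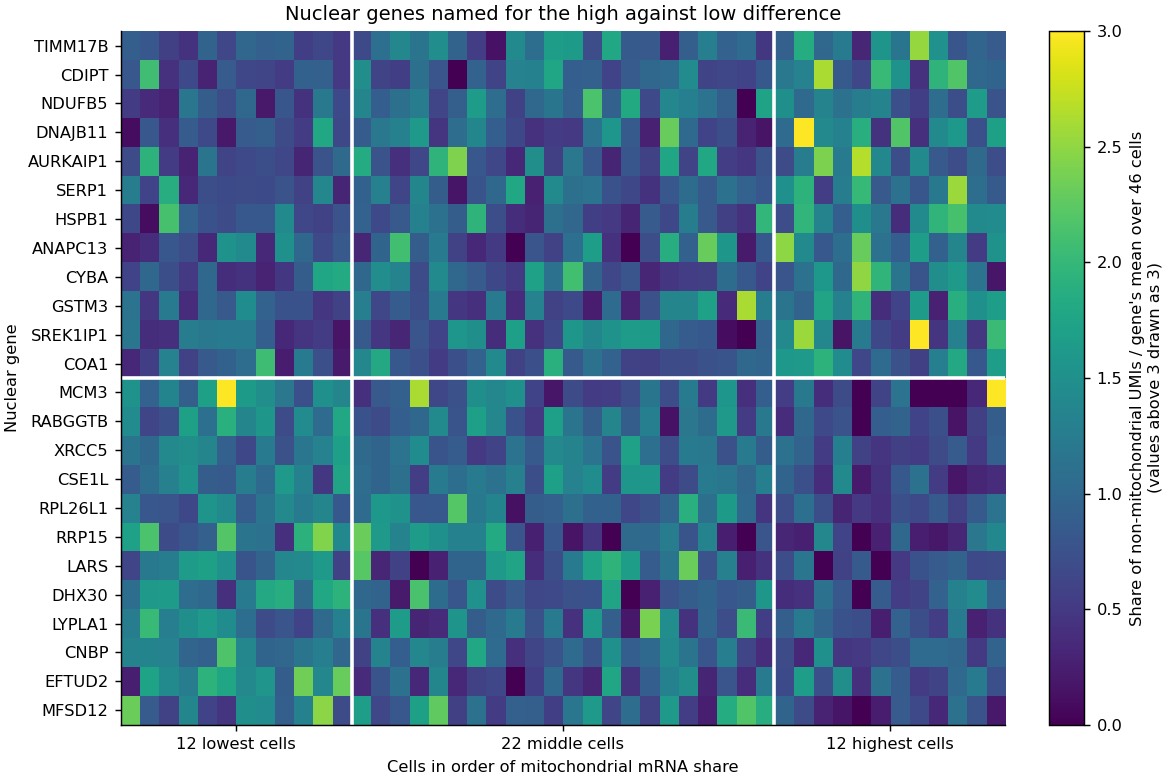
Rows are the 12 nuclear genes named as higher (top) and the 12 named as lower (bottom), columns are 46 cells in order of mitochondrial mRNA share, and the colour is the share of non-mitochondrial UMIs relative to the gene's mean over 46 cells. The MCM3 row shows the 4 high cells without a UMI, and single cells stand against the trend in every row.

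Depth and single cells weighed on these genes. For a choice balanced for depth, 6 high and 6 low cells were taken from the deeper and 6 and 6 from the shallower 23 cells. This kept 9 and 10 of the original members, and the groups' median endogenous UMIs were 54641 and 62184. All 24 genes kept their direction, which the shared cells favour, since the genes were picked on them. In this choice 6 of the 12 higher and 8 of the 12 lower genes passed 1.5-fold. Leaving out any single cell, 10 of the 12 lower genes stayed past 1.5-fold; RPL26L1 was at a log2 ratio of -0.57 without cell 21 and CNBP at -0.56 without cell 50. Of the 12 higher genes 4 stayed past it, TIMM17B, CDIPT, DNAJB11 and ANAPC13. SERP1 was at 0.54 without cell 87, HSPB1 at 0.55 without cell 16, SREK1IP1 at 0.52 without cell 34, NDUFB5 at or above 0.57 without cell 56 or 35, and AURKAIP1 at or above 0.54 without cell 23 or 10. CYBA (0.49), GSTM3 (0.52) and COA1 (0.49), all close to the mark, are given by their lowest value, as several cells could take them under it.

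Nuclear-encoded respiratory chain and ATP synthase subunits, the partners of the 13 mitochondrial mRNAs, entered the ranking of cells only as part of all endogenous UMIs. Of 74 nuclear rows for complexes I to V, 68 were measured, 1 was higher (NDUFB5) and 0 were lower. Of all genes 2.19% were higher and 6.5% lower. The median log2 ratio of the 68 was 0.08. The summed level, which here and below takes in all rows of a list, measured or not, was 467, 522 and 595 UMIs per 10000 in the high cells and 427, 480 and 575 in the low cells, a ratio of 1.08 with the high cell larger in 112 pairs. The ratios of their mitochondrial partners chose the cells and are not comparable. Cell 52, with its large mitochondrial share, had 356 UMIs per 10000 in these nuclear rows, below every high and low cell.

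The complexes differed among themselves. Complex III had a summed ratio of 1.13 (113 pairs) over 8 measured subunits and complex IV of 1.11 (120 pairs) over 11, ATP synthase of 1.08 (104 pairs) over 17, and complex I of 1.02 (75 pairs) over 30. The ratio of complex II, all nuclear, was 1.07 (91 pairs) over 2 measured subunits. UQCR10, a small subunit of complex III, had mean levels of 16.4 and 12.4 UMIs per 10000 in high and low cells, with 121 pairs, and COX6B1 of complex IV had 16.1 and 13.5 with 107. COX7C of complex IV, at 28.2 and 25.0, and ATP5E of ATP synthase, at 21 and 17.5, had 106 and 115 pairs, whereas NDUFA1 of complex I, at 14.5 and 13, had 85. The summed ratios of complexes I, III, IV and V lay above the median of all genes in all 13 other settings. Scalings move a sum and the median nearly together, and the other settings share cells with the main choice, so this count was favoured in advance. Under DESeq2 size factors, however, the summed ratios of all 4 complexes fell below 1. So did those of complex I and ATP synthase under TMM scaling and that of complex I in 2 further settings. Sums weigh abundant genes most. Taken gene by gene, the median log2 ratio was -0.03 in complex I, with 14 of 30 subunits above 0. It was 0.13 in complex III, 0.17 in complex IV and 0.09 in ATP synthase.

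Mitochondrial ribosomal proteins, which build the ribosomes that translate these mRNAs, lay close to the median of all genes. Of 64 measured genes 0 were higher and 1 was lower, MRPL46, with 0, 0.492 and 2.30 UMIs per 10000 in the high and 0.176, 1.09 and 2.20 in the low cells, 1.68-fold lower. Of all genes 2.19% were higher and 6.5% lower. The median log2 ratio of the 64 was -0.10 and 46 of them were below 0, as were 1064 of all 1830 genes. Their summed level was 134, 143.99 and 173 in the high cells and 146, 154 and 181 in the low cells, a ratio of 0.946 with the low cell larger in 121 pairs, and 9 of the 12 high cells lay below every low cell. Against the median of all genes the summed log2 ratio was -0.026, and it was -0.019 with cells balanced for depth and 0.035 among cells numbered up to 48. MRPL20, among the most abundant, had mean levels of 4.93 and 6.59 with the low cell larger in 127 pairs, while MRPL51, at 6.61 and 5.96, went the other way.

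Genes that copy, process and maintain mitochondrial DNA and RNA were mostly scarce, with 9 of 30 rows measured, 0 higher and 1 lower. That gene was TFB1M, a methyltransferase of the small ribosomal RNA, 1.57-fold lower. SLIRP, which binds and stabilises mitochondrial mRNAs, had a log2 ratio of 0.22, and its partner LRPPRC had -0.22. TFAM, which packs mitochondrial DNA and starts its transcription, had 0, 1.45 and 3.43 UMIs per 10000 in the high cells and 1.23, 2.13 and 3.38 in the low cells, a log2 ratio of -0.40. SSBP1, the single-strand DNA-binding protein of its replication, had -0.24. None of these passed 1.5-fold except TFB1M. Of all genes 2.19% were higher and 6.5% lower, and counts this small cannot be told apart from those shares.

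Protein import had 1 higher gene, TIMM17B, and 1 lower, TIMM10, a chaperone of the intermembrane space at mean levels of 2.39 and 3.78, 1.58-fold lower. Of 19 import genes measured no other passed, the summed ratio of the list was 1.00, and TOMM7, at 10.3 and 10.1, was the most abundant. The 9 measured mitochondrial chaperones and proteases had 0 in either direction; HSPD1, the matrix chaperonin, was at 12.5 and 14.1. Of 4 mitochondrial translation factors 0 passed either way, with a summed ratio of 0.959. In the tricarboxylic acid cycle and pyruvate dehydrogenase 0 of 8 genes passed either way, with a summed ratio of 0.895: citrate synthase, CS, was at 2.04 and 2.73, and malate dehydrogenase, MDH2, at 5.57 and 5.34. Of 9 mitochondrial carriers and channels 0 passed either way, with a summed ratio of 0.905, and the ADP/ATP carrier SLC25A5 was at 13.2 and 16.5. Of 4 measured genes for mitochondrial shape and mitophagy FUNDC2, a relative of a mitophagy receptor, passed as lower at 1.09 and 1.70. Of all genes 2.19% were higher and 6.5% lower, and the counts in these lists are too small to tell apart from those shares.

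Among regulators of mitochondrial biogenesis only 2 of 9 rows were measured, and they went opposite ways. YY1 had 0, 1.33 and 3.26 UMIs per 10000 in the high cells and 0.198, 0.907 and 1.85 in the low cells, 1.61-fold higher with 93 pairs. MYC had 0, 0.636 and 3.05 against 0, 1.78 and 4.03, 1.96-fold lower with 106 pairs. Both ranges overlapped almost wholly, and in the choice of cells balanced for depth the summed ratio of the 9 rows turned from 0.740 to a log2 ratio of 0.05.

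**Figure D5:**
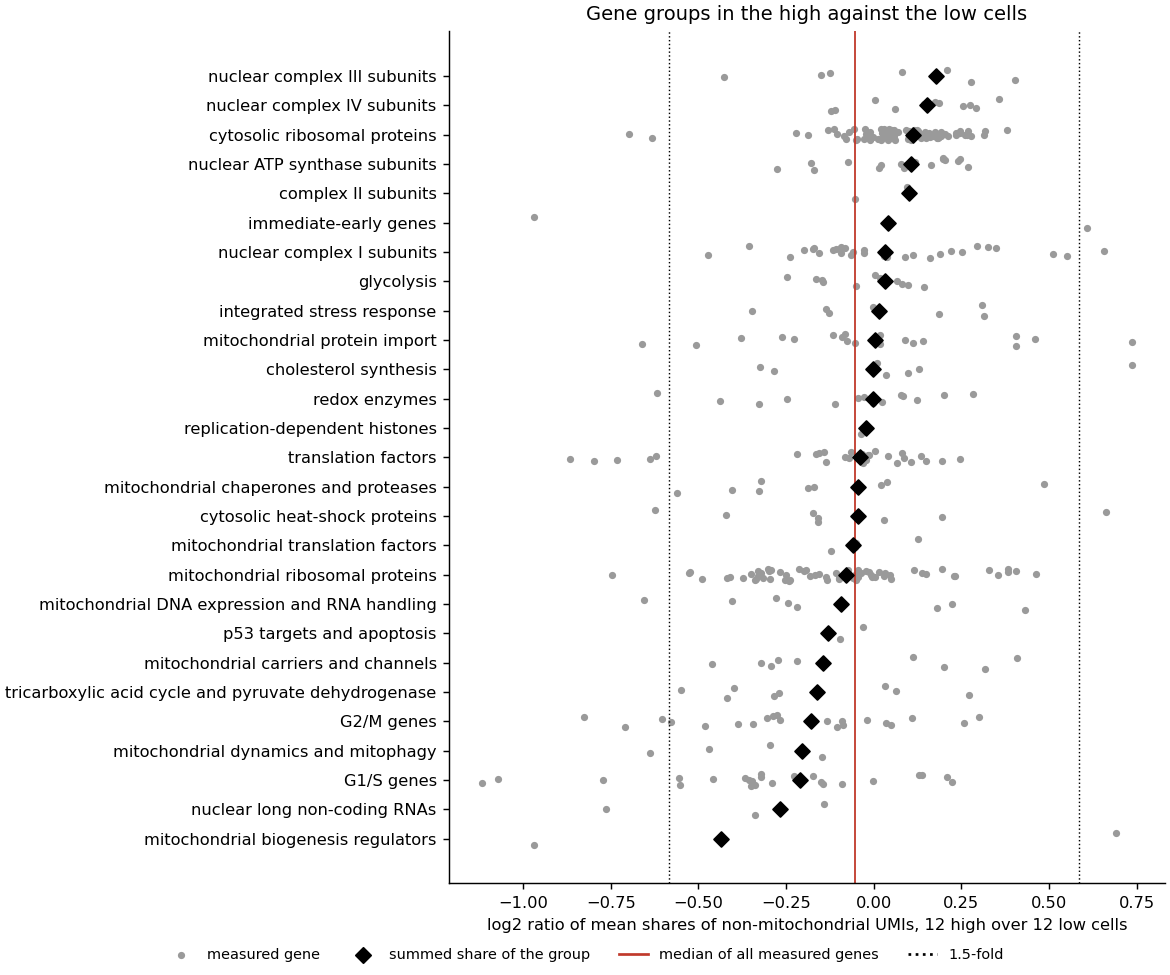
Each grey point is 1 measured gene of a group and each diamond the summed share of the group, placed by the log2 ratio of mean shares of non-mitochondrial UMIs in the 12 high over the 12 low cells; dotted lines mark 1.5-fold and the red line the median of all 1830 genes, -0.05. Complexes III and IV and cytosolic ribosomal proteins lie to the right of that line, and G1/S genes to its left.

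Cytosolic ribosomal proteins took a larger share of non-mitochondrial UMIs in the high cells, though not under TMM scaling or DESeq2 size factors. They summed to 2677, 2921 and 3362 UMIs per 10000 in the high cells and 2474, 2667 and 3048 in the low cells, a ratio of 1.08 with the high cell larger in 124 pairs. Of 79 measured genes 0 were higher and 2 lower (2.19% and 6.5% of all genes were), RPL22L1 and RPL7L1, both paralogs of ribosomal proteins. RPLP1, at mean levels of 89.6 and 76.1, had 121 pairs. The summed ratio, weighted to abundant genes, lay above the median of all genes in all 13 other settings, which shared cells and scaling favour. Its log2 value was 0.11 in the main comparison and 0.04 with cells balanced for depth. It turned to -0.01 under TMM scaling and -0.13 under DESeq2 size factors. Of 29 measured translation factors 0 were higher and 5 lower (6.5% of all genes were), EIF1AX, EIF2S1, EIF2S3, EIF3A and EIF4E, by 1.54- to 1.82-fold. Their summed ratio was 0.974, which is 0.015 above the median of all genes on the log2 scale and so close to it.

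G1/S genes of the cell cycle were lower on balance in the high cells. Of 24 measured G1/S genes 0 were higher and 3 lower. Of all genes 2.19% were higher and 6.5% lower, and counts this small cannot be told apart from those shares. The 3 were MCM3, named above from this same contrast, RFC1 (1.71-fold) and RFC2 (2.10-fold). The RFC pair are subunits of the clamp loader of DNA replication. The median log2 ratio of the G1/S genes was -0.32, with 4 of 24 above 0. Their summed level was 33.4, 54.8 and 77.0 in the high and 42.7, 63.8 and 88.6 in the low cells. The summed ratio was 0.865, with the low cell larger in 100 pairs, and the group lay below the median of all genes in all 13 other settings. That count was favoured in advance too, for the reasons given for the respiratory complexes above. Of 21 measured G2/M genes 0 were higher and 3 lower, again too few to tell apart from the shares of all genes. The 3 were TOP2A, a topoisomerase (1.77-fold), AURKB, a mitotic kinase (1.64-fold), and NUSAP1, a spindle protein (1.52-fold). The summed ratio of the G2/M genes was 0.884. It lay above the median of all genes when 16 cells were taken per side, when cells were balanced for depth and among cells numbered above 48. HIST1H4C, a replication-dependent histone, was at 9.78, 30.4 and 123 in the high cells and 9.69, 53.6 and 97.3 in the low cells, with means of 52.4 and 53.8.

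Single cells decided some of the list members past 1.5-fold. Of 27 such genes over all lists, 11 stayed past it without any 1 cell. AURKB was at a log2 ratio of -0.57 without cell 50 and fell short without cell 73 too, RPL7L1 at -0.57 without cell 51 (also cell 23), and TIMM10 at -0.56 without cell 73 (also cell 35). TFB1M was at -0.45 without cell 33 (also cell 87), and YY1 at 0.53 without cell 73 (also cells 51 and 80). EIF3A (-0.54), EIF4E (-0.49), FUNDC2 (-0.51), NUSAP1 (-0.48) and RPL22L1 (-0.53) are given by their value nearest 0, as 5 or more cells could take each under the mark.

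The numbers of the cells in their labels were not evenly spread over the groups. Of the 12 high cells 5 had a number up to 48, as had 16 of the 22 middle and 9 of the 12 low cells, and what the number stands for is not given. Within the cells numbered up to 48 there were 101 higher and 284 lower genes, and within those above 48 there were 161 and 247, from 5 high and 9 low cells in the first set and 7 and 3 in the second. All 24 named genes kept their direction within the first set and 23 within the second, where GSTM3 did not, at a log2 ratio of -0.029. The genes were picked on these same cells, so a kept direction was favoured in advance.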

How the data were processed

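The deposited table holds UMI counts per gene and cell, whole numbers that the authors did not normalize. Tools named in the submitters' processing notes were STAR 2.4.0a and cutadapt 1.2.1, with the builds hg19 and GRCh37. Not given in the sources used here are the annotation, the UMI counter and the use of strand. All 47 columns matched a labelled cell, with 0 left over. A repeated header line (0.0602% of all values) and 78 spike-in rows were kept out of totals.

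No doublet caller was run, and the labels do not say whether chambers were inspected. Shares were computed per cell with Python 3.11.15 and pandas 2.3.3. Named genes were the 12 in each direction, past 1.5-fold with a mean of at least 5 UMIs, with the most cell pairs (ties to the larger fold), then members of 27 gene lists past 1.5-fold and the most abundant members of each list; the nuclear copy MTATP6P1 was named apart. The cells, lists and rules were chosen with earlier results of these data known. Alternatives were TMM scaling (edgeR 4.0.16), DESeq2 1.42.0 size factors, other denominators, centres, filters, folds, group sizes, thinning, balancing for depth, leaving out each cell and, chosen after seeing the data, splitting cells by number. Scripts were tested on simulated data. Transcript lengths came from GENCODE release 29, matched by symbol for 94.4% of genes measured. Poisson and Clopper-Pearson intervals cover counting error only.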

Additional observations from a re-analysis of the deposited data

Results flagged for a closer look

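Cell 52, which no comparison used, had a mitochondrial mRNA share of 12.1% of endogenous UMIs, above the 5.02% of the highest cell in the comparison. It held 3942 mitochondrial mRNA UMIs, more than any high or low cell, and 26608 non-mitochondrial UMIs, fewer than any of them. Per spike-in UMI it had 1.08 mitochondrial mRNA UMIs and 7.31 non-mitochondrial UMIs. Its ribosomal RNA rows equalled 7.84% of non-mitochondrial UMIs, against at most 4.07% in the high cells. Of the 12 genes named as higher in the high cells 5 were above the high cells' mean in cell 52, and of the 12 named as lower 2 were below it. No group of the labels holds this cell apart, and why it differs was not tested.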

How the results depend on the processing

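The comparison has no test, so only values and directions can be followed. From 40 genes higher and 119 lower, the counts became 13 and 190 under TMM scaling and 4 and 325 under DESeq2 size factors. They were 74 and 187 with 8 cells per side and 17 and 79 with 16. A minimum mean of 1 UMI gave 599 and 1196, a minimum of 20 gave 2 and 6, and no filter gave 2528 and 2978. A lower fold mark gave 178 and 374, and a 2-fold mark 1 and 10. Medians of cells gave 215 lower genes and thinned cells 65 higher ones. Cells numbered up to 48 gave 101 and 284, and those above 48 gave 161 and 247, splits chosen after seeing the data. The cause of these shifts was not tested, apart from the filters and marks, which set how many genes can pass. Leaving out 1 cell gave 31 to 48 higher and 104 to 136 lower genes. Of the 24 named genes, GSTM3 turned to a log2 ratio of -0.029 above number 48, and no other changed direction in any setting run. All settings share cells with the choice of these genes, which favours a kept direction. Of the 27 gene groups, most with summed ratios near 1, from 17 (DESeq2 size factors) to 27 kept their side of 1. Scarce genes are limited by counting error, as the high cells held only 567596 UMIs in all.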

Other observations

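Several gene groups outside mitochondria differed little. Of all genes 2.19% were higher and 6.5% lower, and the small counts below cannot be told apart from those shares. Of 11 measured glycolysis genes 0 passed 1.5-fold in either direction, with a summed ratio of 1.02; GAPDH was at 22.6, 37.4 and 56.7 UMIs per 10000 in the high cells and 29.5, 32.2 and 41.7 in the low cells, wider among the high cells. Of 14 redox enzymes TXNRD1 alone passed, as lower, and the summed ratio was 0.998. TXN, thioredoxin, was at 28.5 and 24.8, with the high cell larger in 108 pairs. Of 7 genes of the integrated stress response 0 passed, and its factor ATF4 was at 4.04 and 3.24. Of 8 cytosolic heat-shock genes HSPB1 was higher and STIP1, a co-chaperone, lower. Among 7 cholesterol genes INSIG1, which holds back sterol synthesis, was 1.67-fold higher. Of 2 immediate-early genes measured, JUN was 1.53-fold higher and MYC lower. Without 1 cell, JUN (log2 ratio 0.48 without cell 87), STIP1 (-0.42 without cell 43) and TXNRD1 (-0.48 without cell 50) came under 1.5-fold.

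The long non-coding RNA MALAT1 was at 1.2, 5.58 and 33.9 UMIs per 10000 in the high cells and 1.61, 15.8 and 30.0 in the low cells, a log2 ratio of -0.34 with wide spread in both groups. NEAT1, of paraspeckles, was 1.70-fold lower, at 0.241, 0.855 and 2.05 against 0.209, 1.06 and 4.39. Its log2 ratio was -0.48 without cell 35, and it was also under 1.5-fold without cell 62. Of 2 measured p53 and apoptosis genes 0 passed, and CYCS, cytochrome c, was at 6.30 and 6.72. Epithelial and neuronal markers both had a summed ratio of 1.42, with the high cell larger in 83 and 92 pairs.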
